A study of Mus musculus with 24 samples.

Results

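GABA-A receptor subunits are the proteins that assemble around the chloride channel opened by GABA, the main inhibitory transmitter of the brain. 7 of their genes were followed in the hippocampus of neonatal mice: Gabra2, Gabra3, Gabra4 and Gabra5, which encode alpha subunits, Gabrb1 and Gabrb2, which encode beta subunits, and Gabrd, which encodes the delta subunit. They were chosen by symbol out of 36163 gene names on the array, and every probe that carried one of the symbols was taken, which gave 9 of 55681 probes. Gabra2 and Gabra3 had 2 probes each and the other members 1.

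The question of the study was whether morphine given together with stress alters hippocampal RNA. All pups were C57BL/6 males killed at postnatal day 9 (P9), and no group carried an introduced allele. Con pups were untreated littermates that stayed in the home cage with little handling. MS2 and MS5 pups received morphine at 2 or 5 mg/kg from P5 onward, injected shortly ahead of each daily exposure to pure nitrogen that stood in for apnea, and they spent the daytime in isolation away from the dam. Every treated group thus had morphine, gas exposure and separation at once, so the effects of the drug and of the stress cannot be told apart, and no stressed group without morphine was analysed here. Both hippocampi of an animal were put in the same tube, and 5 animals of each group were hybridised to 1 array each, 15 arrays in all, with Con replicates 15 to 19, MS2 replicates 1, 3, 4, 5 and 7, and MS5 replicates 8, 9, 12, 13 and 14. Values are log2 of the background-adjusted, quantile-normalised fluorescence of a probe, and a difference in log2 units is the logarithm of a fold change.

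A GABA-A receptor is a ring of subunits, usually alpha and beta subunits with a gamma or a delta subunit, and its makeup sets where in the neuron the receptor sits and how it responds to drugs. Receptors with Gabra2 or Gabra3 are mostly synaptic, those with Gabra5 lie largely outside synapses of hippocampal pyramidal cells, and those that pair Gabra4 with Gabrd carry the sustained, neurosteroid-sensitive current of dentate granule cells. During the first weeks after birth the subunit makeup of the rodent forebrain shifts, and the chloride gradient through which GABA acts matures.

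Several arrays stood apart from the rest. MS2 replicate 4 went against the hippocampus label: the mean log2 signal of 10 hippocampal principal neuron genes (such as Neurod6, Prox1 and Slc17a7) was 10.08 on it and between 11.93 and 12.46 on the other 14, while that of 8 thalamus genes was 10.54 against 8.96 to 9.80, and that of 7 hypothalamus genes was 9.90 against 6.67 to 8.66. On each of these lists MS5 replicate 8 came nearest to MS2 replicate 4, at 11.93, 9.80 and 8.66. It was not among the 3 arrays that are left out together below. MS5 replicate 9 went against the male label, with Xist, the RNA of the inactive X chromosome, at 11.34 against 5.89 to 6.08 on the other 14. MS2 replicate 5 was dim, with a median spot signal of 51.0 units before normalisation where the others had 100.4 to 127.9. The arrays lay on 2 slides, each scanned once, so slide and scan cannot be told apart. The only MS2 arrays on slide 2 were replicates 4 and 5. Each difference of MS2 given for slide 2 thus rests on these same arrays. Values without these arrays and within slides are given beside the results that they moved most.

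The probes are shown first, because a value belongs to a probe and not to a whole gene. For each, 30 of its 60 bases follow, 5′ to 3′, with mm9 positions as the files give them. In the Gabra2 probe the capitals mark 29 bases that it shares with the second Gabra2 probe, and in the second Gabra3 probe they mark the word GACAGA. All leading probes are shown so that each value can be tied to the bases that gave it.
Gabra2, chr5:71352275-71352334, minus strand, bases 1 to 30: TCAGCTCACTTCAATCATTGGAAACTACCt
Gabra3, chrX:69678031-69678090, minus strand, bases 1 to 30: ctgtagaaattgtgttttaaaatgctttgg
Gabra3 second probe, chrX:69679357-69679416, minus strand, bases 31 to 60: acagagaaagaGACAGAgaGACAGAaagac
Gabra4, chr5:71961055-71961114, minus strand, bases 1 to 30: gttgaaagatgttgaagatatctttactta
Gabra5, chr7:64663486-64663545, minus strand, bases 1 to 30: ctgtggacatttaagtccagtacgaattgc
Gabrb1, chr5:72528086-72528145, plus strand, bases 1 to 30: tcgcttgttttttaaccccacagattccca
Gabrb2, chr11:42445782-42445841, plus strand, bases 1 to 30: cttgtagcctttctgaacacacacatcatg
Gabrd, chr4:154759071-154759089, minus strand, bases 1 to 30: aggccttttctctgtgggatcaggatcaga
For Gabrd the files give a span of 19 bases for a probe of 60, so only part of it is placed by that position. Exons and untranslated ends of mm9 were not used here, and the probes are placed by position only. The second Gabra3 probe holds GACAGA 3 times, with 2 of the copies whole within the bases shown, and it is 1 of 3 among the 55681 probes that hold the word that often (0.00539%).

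The genes themselves lie on 5 chromosomes. Gabra2, Gabra4 and Gabrb1 sit on chromosome 5, and in the RefSeq annotation of GRCm38.p6, which is another build than that of the probes, Gabra4 runs on the minus strand and Gabrb1 on the plus strand head to head, with 388 positions at their starts shared by the gene models. Promoter windows from 250 bases before to 50 after a start were given for 6 of the 7 members, and Gabrd had none. The windows of both neighbours follow because they lie side by side, 5′ to 3′ on the strand of the gene, with the GC box GGGCGG, on either strand, in capitals.
Gabra4 promoter, GRCm38.p6 chr5:71658259-71658558, minus strand: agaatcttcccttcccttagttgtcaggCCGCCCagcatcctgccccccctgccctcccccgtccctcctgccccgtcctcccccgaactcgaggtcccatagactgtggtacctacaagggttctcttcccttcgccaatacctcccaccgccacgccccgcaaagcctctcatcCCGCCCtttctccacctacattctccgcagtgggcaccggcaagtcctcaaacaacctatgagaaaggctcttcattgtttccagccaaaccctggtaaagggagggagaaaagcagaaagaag
Gabrb1 promoter, GRCm38.p6 chr5:71657671-71657970, plus strand: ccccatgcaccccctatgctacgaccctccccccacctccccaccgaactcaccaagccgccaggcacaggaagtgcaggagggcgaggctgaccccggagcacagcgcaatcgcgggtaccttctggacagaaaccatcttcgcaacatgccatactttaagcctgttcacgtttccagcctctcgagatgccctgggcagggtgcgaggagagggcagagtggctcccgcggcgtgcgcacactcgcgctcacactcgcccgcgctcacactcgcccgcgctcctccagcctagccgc
The Gabra4 window held 2 copies of GGGCGG and the Gabrb1 window 0, and 35.7% of 32841 promoter windows held at least 1. Neither held TATAAA on either strand, which 13.6% of the windows did. These are matches of letters in these windows and say nothing about which factor binds.

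None of the 9 member probes passed an unadjusted p under 0.05 in limma in any of the 3 comparisons, and their adjusted p was at least 0.970. Across all 55681 probes 4.17% passed that threshold in MS2 vs Con, 3.9% in MS5 vs Con and 3.97% in MS5 vs MS2, and 0 passed after adjustment. With a fold change above 1.5 required beside the unadjusted p, 0 of 9 member probes passed, against 0.0233%, 0.228% and 0.129% of all probes. The groups overlapped for all 9 member probes in each comparison, whereas they did not overlap for 0.702%, 0.828% and 0.621% of all probes.

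A p that misses the threshold does not show that the levels were alike, so the intervals matter. The 95% interval of the difference lay within 1.5-fold either way for 6 of 9 member probes in MS2 vs Con, 8 of 9 in MS5 vs Con and 7 of 9 in MS5 vs MS2. Among all probes that share was 95.2%, 95.3% and 96.1%. The probes whose intervals reached further were those of Gabrd in every comparison, Gabra5 in MS2 vs Con and in MS5 vs MS2, and the leading Gabra3 probe in MS2 vs Con. For the leading probe of each gene, the one with the highest mean signal, the median size of the difference was 0.20 log2 units in MS2 vs Con, 0.08 in MS5 vs Con and 0.12 in MS5 vs MS2, beside 0.05, 0.04 and 0.05 over all probes. Every member probe was well above background on every array, as were 36279 of all probes. The shares and medians over all probes also include dimmer probes, so they are not a like-for-like measure.

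**Figure D1:**
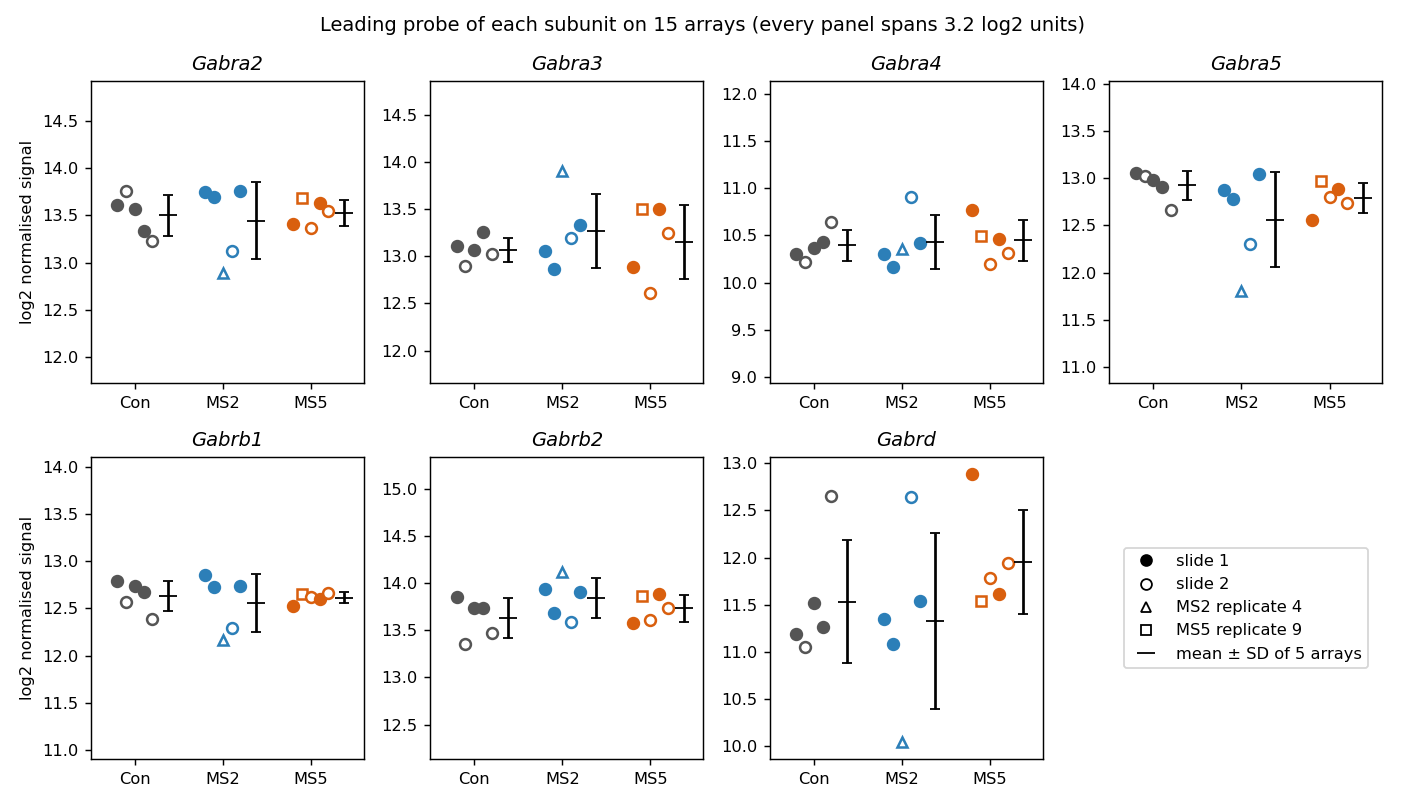
Log2 normalised signal (vertical axes, all of equal span) of the leading probe of the 7 subunit genes on 15 arrays in Con, MS2 and MS5; filled symbols are slide 1, open symbols slide 2, and bars are the mean ± SD of 5 arrays. The groups overlap in every panel, MS2 replicate 4 (triangle) has the lowest Gabra2, Gabra5, Gabrb1 and Gabrd, and Gabrd spreads over the widest range, from 10.05 to 12.89.

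Among the alpha subunits Gabra5, the subunit of extrasynaptic receptors on pyramidal cells, had the smallest p of all members, in MS2 vs Con. Its log2 signals in Con were 13.06, 13.03, 12.98, 12.90 and 12.67 in replicate order. MS2 arrays gave 12.88, 12.78, 11.80, 12.30 and 13.05. In MS5 they were 12.56, 12.97, 12.80, 12.89 and 12.73. Replicates 4 and 5 were the lowest MS2 arrays, both on slide 2, and the other 3 MS2 arrays lay within the Con range.

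Gabra5 averaged 12.93 ± 0.16 (SD, n = 5) in Con, 12.56 ± 0.51 in MS2 and 12.79 ± 0.16 in MS5. The difference of MS2 from Con was -0.36 (95% interval -0.76 to 0.03), with an unadjusted limma p of 0.0688 and an exact permutation p of 0.183. It was -0.08 on slide 1 and -0.79 on slide 2. Leaving out MS2 replicate 4 moved it to -0.17, and leaving out the 3 arrays that stood apart to -0.02 (p 0.810), while limma's array weights gave -0.12. With the slide as a block its limma p was 0.0474, with an adjusted p of 0.900. MS5 differed from Con by -0.13 (-0.53 to 0.26) and from MS2 by 0.23 (-0.17 to 0.63), and without MS5 replicate 9 these were -0.18 and 0.18. Without MS2 replicate 4 the difference of MS5 from MS2 was 0.04, and within slides it was -0.18 on slide 1 and 0.78 on slide 2.

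Gabra2, a synaptic alpha subunit abundant in the developing and adult hippocampus, showed no called difference between groups. Con values were 13.61, 13.76, 13.57, 13.34 and 13.22. Those of MS2 were 13.75, 13.69, 12.89, 13.12 and 13.76, so the replicates fell into 3 near the top of the Con range and 2, replicates 4 and 5, below all Con arrays. MS5 values stayed between 13.36 and 13.68 on 5 arrays, within the Con range. The MS2 vs Con difference was -0.06 (-0.40 to 0.29) and turned to 0.08 without MS2 replicate 4. MS5 vs Con was 0.03 (-0.32 to 0.37) and MS5 vs MS2 0.08 (-0.26 to 0.43). Within slides MS2 minus Con was 0.22 on slide 1 and -0.49 on slide 2, and without MS2 replicate 5 it was 0.02. MS5 minus Con was 0.01 and 0.04 on slides 1 and 2.

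With MS2 replicates 4 and 5 and MS5 replicate 9 all left out, a choice made after seeing the data, Gabra2 was 0.23 log2 units higher in MS2 than in Con (unadjusted limma p 0.0495, adjusted p 0.808) and differed by -0.25 in MS5 vs MS2 (p 0.0467, adjusted p 0.692). Without these 3 arrays 6.17% and 7.19% of all probes passed that unadjusted threshold. The MS2 arrays kept, replicates 1, 3 and 7, all lay on slide 1, while Con and MS5 kept arrays on both slides. These comparisons with MS2 are thus not balanced for slide. The second Gabra2 probe, which shares 29 bases with the first, moved with it over the 15 arrays (r = 0.96, permutation p 1e-05, the smallest that 100000 resamples can give, Spearman's rho = 0.92, p 2e-05, and r = 0.92 without the 2 farthest arrays). Its MS2 vs Con difference was -0.05 (-0.43 to 0.33).

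Gabra3, an X-linked synaptic subunit known to be prominent in the immature forebrain, spread more within MS2 and MS5 than within Con. Con arrays lay at 13.11, 12.90, 13.07, 13.25 and 13.02. In MS2 the values were 13.06, 12.86, 13.90, 13.19 and 13.33, with replicate 4 the highest of all 15 arrays. In MS5 they were 12.89, 13.50, 12.61, 13.49 and 13.25, from below to above every Con array. The SD was 0.39 in MS2, with replicate 4 included, and 0.39 in MS5, against 0.13 in Con. These spreads were not tested against each other. MS5 replicate 9, the array with Xist signal, lay level with MS5 replicate 13.

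Gabra3 differed by 0.20 (-0.21 to 0.60) in MS2 vs Con, and by 0.04 once MS2 replicate 4 was left out. MS5 vs Con was 0.08 (-0.33 to 0.49) and -0.01 without MS5 replicate 9, and MS5 vs MS2 was -0.12 (-0.52 to 0.29). Without MS2 replicate 4 the last was 0.04. Within slides MS2 minus Con was -0.06 on slide 1 and 0.59 on slide 2, and MS5 minus Con 0.05 and 0.16. The second Gabra3 probe gave 7.0, 6.80, 6.78, 6.76 and 6.78 in Con, and moved with the first across the 15 arrays (r = 0.77, permutation p 0.00126, Spearman's rho = 0.56, p 0.0322, and r = 0.56 without the 2 farthest arrays). On this probe MS5 exceeded Con by 0.17 (-0.07 to 0.42), with a limma p of 0.145 and an exact permutation p of 0.0635. The exact test over all assignments of 5 against 5 arrays cannot go below 0.00794.

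Gabra4, the alpha partner of the delta subunit, was among the steadier members. Con gave 10.30, 10.22, 10.37, 10.43 and 10.64. MS2 gave 10.30, 10.17, 10.36, 10.90 and 10.42. MS5 gave 10.77, 10.49, 10.20, 10.46 and 10.32. Its highest arrays were MS2 replicate 5, MS5 replicate 8 and Con replicate 19, 1 from each group. The differences were 0.04 (-0.24 to 0.32) in MS2 vs Con, 0.05 (-0.23 to 0.34) in MS5 vs Con and 0.02 (-0.26 to 0.30) in MS5 vs MS2, so all 3 intervals lay within 1.5-fold either way. MS2 minus Con was 0.05 without MS2 replicate 4 and -0.08 without MS2 replicate 5, and -0.07 and 0.20 on slides 1 and 2. MS5 minus Con was 0.25 and -0.10 on the slides, and -0.03 without MS5 replicate 8.

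Of the beta subunits, which with alpha subunits form the GABA site, Gabrb1 had the smallest SD of all members over the 15 arrays, 0.19 log2 units. In Con its values were 12.79, 12.57, 12.73, 12.68 and 12.39. In MS2 they were 12.85, 12.72, 12.16, 12.30 and 12.74. In MS5 they were 12.52, 12.65, 12.63, 12.60 and 12.67, the tightest of its 3 groups. Replicates 4 and 5 were again the low MS2 arrays. The differences were -0.08 (-0.33 to 0.18) in MS2 vs Con and -0.02 (-0.27 to 0.24) in MS5 vs Con, and without MS2 replicate 4 the former was 0.02. MS5 vs MS2 was 0.06 (-0.19 to 0.31). MS2 minus Con was 0.04 on slide 1 and -0.25 on slide 2, and -0.01 without MS2 replicate 5. MS5 minus Con was -0.17 on slide 1 and 0.17 on slide 2.

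Gabrb2, a beta subunit abundant in the adult forebrain, had the next smallest p after Gabra5 in MS2 vs Con. Its Con values were 13.85, 13.36, 13.73, 13.74 and 13.47. The MS2 arrays stood at 13.94, 13.68, 14.12, 13.59 and 13.91. MS5 arrays stood at 13.57, 13.86, 13.61, 13.88 and 13.73. 3 of 5 MS2 arrays lay above every Con array, and replicate 4 was the highest.

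The Gabrb2 mean was 13.63 ± 0.21 (SD, n = 5) in Con, 13.85 ± 0.21 in MS2 and 13.73 ± 0.14 in MS5. MS2 exceeded Con by 0.22 (-0.02 to 0.45), with an unadjusted limma p of 0.073 and an exact permutation p of 0.151. That difference was 0.07 on slide 1 and 0.44 on slide 2, and without MS2 replicate 4 it was 0.15 (p 0.193). Without MS2 replicate 5 it was 0.28 (p 0.0252, adjusted p 0.742). MS5 differed from Con by 0.10 (-0.14 to 0.34) and from MS2 by -0.12 (-0.35 to 0.12). The first was 0.03 without Con replicate 16, and -0.05 and 0.32 on slides 1 and 2, and the second was -0.05 without MS2 replicate 4.

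Gabrd, the delta subunit of extrasynaptic receptors, varied most. Its Con values were 11.19, 11.05, 11.52, 11.26 and 12.65, with replicate 19 more than 1 log2 unit above the others. MS2 values were 11.35, 11.08, 10.05, 12.64 and 11.53, and so held both the lowest array of the study, replicate 4, and one of the highest, replicate 5. MS5 values were 12.89, 11.54, 11.78, 11.61 and 11.94. All 5 MS5 arrays lay above 4 of the 5 Con arrays, with replicate 8 the highest of all 15.

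Over the 15 arrays the Gabrd range was 7.17-fold and its SD 0.72 log2 units, higher than that of 99.3% of the 36279 probes well above background on every array, whose median SD was 0.13. The other members' SDs ran from 0.19 for Gabrb1 to 0.33 for Gabra5, higher than those of 76.3% to 94.2% of the same probes. The Gabrd mean was 11.53 ± 0.65 (SD, n = 5) in Con, 11.33 ± 0.93 in MS2 and 11.95 ± 0.55 in MS5. MS2 differed from Con by -0.20 (-1.10 to 0.69). MS5 exceeded Con by 0.42 (-0.47 to 1.31) and MS2 by 0.62 (-0.27 to 1.52, unadjusted limma p 0.157, exact permutation p 0.23), an interval wider than that of any other member. MS5 minus Con was 0.93 on slide 1 and -0.10 on slide 2, 0.18 without MS5 replicate 8 and 0.70 without Con replicate 19. Without MS2 replicate 4 the MS5 vs MS2 difference was 0.30, and without MS2 replicate 5 it was 0.95 (p 0.0245, adjusted p 0.955), while without MS5 replicate 8 it was 0.39. Single arrays thus decided the size of the Gabrd differences. MS2 minus Con ran from -0.53 without MS2 replicate 5 to 0.12 without MS2 replicate 4.

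**Figure D2:**
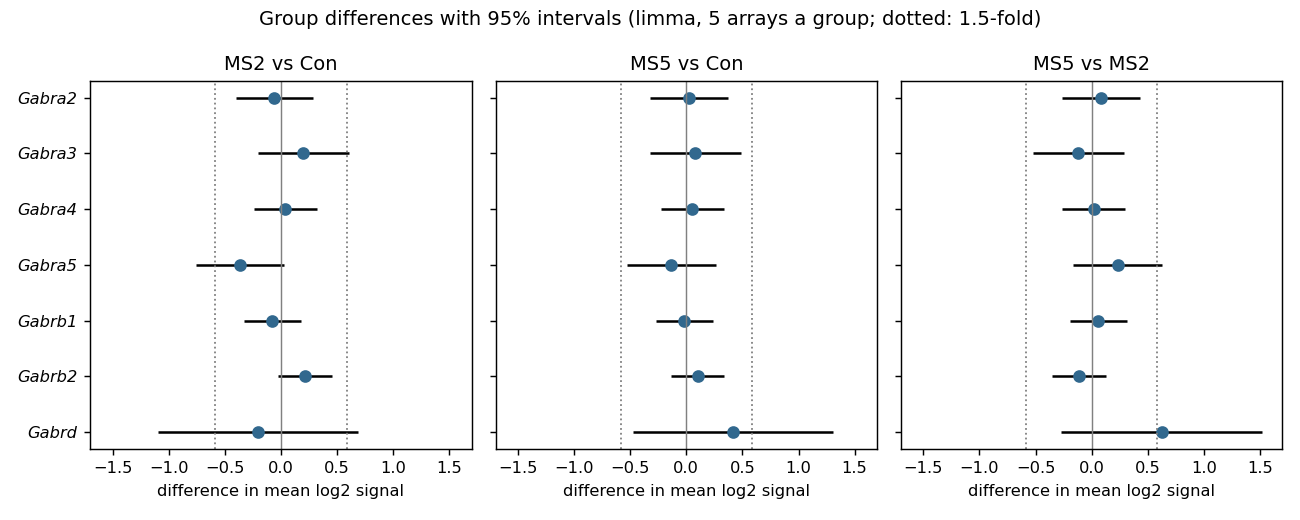
Difference in mean log2 signal (horizontal axes) of the leading probe of each subunit gene in the 3 comparisons, with 95% intervals from limma on 5 arrays per group; dotted lines mark a 1.5-fold difference. Every interval includes 0, and those of Gabrd are the widest, as in MS5 vs MS2 from -0.27 to 1.52.

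The members did not vary independently across the arrays. Pearson's r and Spearman's rho were computed for all 21 pairs over 15 arrays, with permutation p over 100000 resamples and Benjamini-Hochberg adjustment over the 21 pairs. Gabra2, Gabra5 and Gabrb1 moved together. For Gabra2 with Gabra5 r was 0.87 (permutation p 9e-05, adjusted 0.00105) and rho 0.69 (p 0.00521, adjusted 0.0444). For Gabra5 with Gabrb1 r was 0.86 (permutation p 0.00015, adjusted 0.00105) and rho 0.69 (p 0.00635, adjusted 0.0444). Gabra2 with Gabrb1 gave r 0.86 (permutation p 0.00013, adjusted 0.00105) and rho 0.61 (p 0.019, adjusted 0.0798).

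These 3 correlations were smaller but still positive without MS2 replicates 4 and 5, the arrays farthest from the median, at 0.62, 0.56 and 0.63. On slide 1 (8 arrays) they were 0.42, 0.67 and 0.63, and on slide 2 (7 arrays) 0.93, 0.89 and 0.89. With the group means subtracted they were 0.93, 0.90 and 0.86, so they did not rest on differences between the groups. Of the 36279 probes well above background on every array, 99.9% had a lower r with Gabra2 than Gabra5 had. For Gabrb1 with Gabra2 that share was 99.8%, and for Gabrb1 with Gabra5 it was 99.1%. Each permutation p was taken against no relation, and not against the other probes of the array.

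Gabra3 with Gabrb2 also moved together, with r 0.73 (permutation p 0.00219, adjusted 0.00962) and rho 0.70 (p 0.00521, adjusted 0.0444). Their r was 0.62 without the 2 farthest arrays, and 0.64 and 0.85 within slides. Of the 36279 probes well above background on every array, 97.9% had a lower r with Gabra3 than Gabrb2 had, so many other probes followed Gabra3 more closely. Gabra4 with Gabrd, whose proteins join in the same receptors, had r 0.72 (permutation p 0.00229, adjusted 0.00962) and rho 0.64 (p 0.012, adjusted 0.063). Within slides Gabra4 with Gabrd had r 0.93 and 0.60, but r was 0.46 without MS2 replicate 5 and MS5 replicate 8, so this relation rests in part on those arrays. Of the same probes, 98.8% had a lower r with Gabra4 than Gabrd had. The head-to-head neighbours Gabra4 and Gabrb1 had r -0.52 (permutation p 0.0472, adjusted 0.142), rho -0.46 (p 0.0888, adjusted 0.304) and r -0.31 without the 2 farthest arrays, which does not pass the adjusted threshold. On slides 1 and 2 r was -0.80 and -0.48 for Gabra4 with Gabrb1, and without MS2 replicate 4 it was -0.75.

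Leaving out MS2 replicate 4 alone, a choice made after seeing the data, changed the picture for Gabrd. Over the 14 other arrays Gabrd had r -0.81 with Gabra5, -0.73 with Gabra2 and -0.76 with Gabrb1, where over all 15 these were 0.07, -0.07 and -0.09. The 3 values were -0.79, -0.65 and -0.69 when MS2 replicate 5 was left out as well. On slide 1, which does not hold replicate 4, they were -0.71, -0.43 and -0.76. On slide 2, which holds it, they were 0.35, 0.09 and 0.22, and slide 2 was not read without it. Gabra4 had r -0.71 with Gabra5, -0.66 with Gabra2 and -0.75 with Gabrb1 over the 14 arrays (rho -0.40, -0.51 and -0.55). When MS2 replicate 5 was left out as well, r was -0.48, -0.47 and -0.58. With MS2 replicate 5 and MS5 replicate 8 left out instead, Gabra4 had r -0.05 with Gabra5 and -0.31 with Gabrb1. Over the 14 arrays without MS2 replicate 4, hippocampi with more Gabrd or Gabra4 signal tended to have less Gabra2, Gabra5 and Gabrb1 signal. In pieces of tissue, fewer cells of a type and less RNA per cell cannot be told apart.

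**Figure D3:**
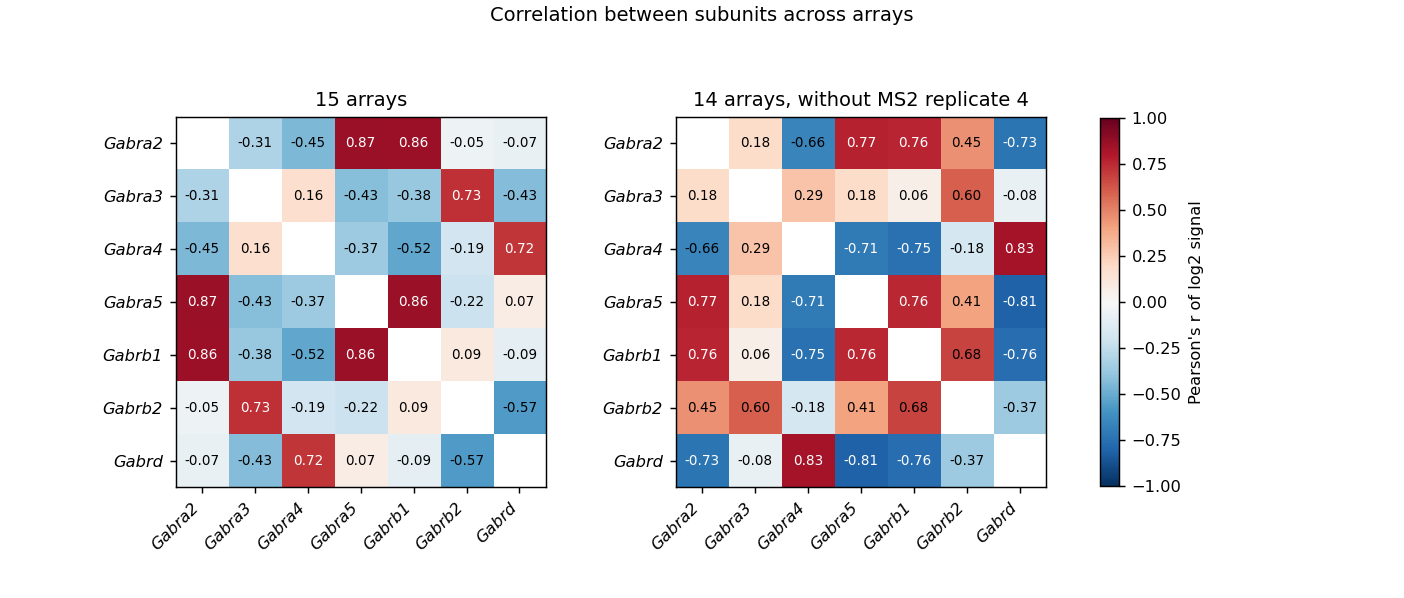
Pearson's r of log2 signal between the leading probes of the 7 subunit genes over 15 arrays (left) and over the 14 without MS2 replicate 4 (right); red is positive and blue negative. Gabra2, Gabra5 and Gabrb1 are positive with each other in both, and Gabrd, near 0 with them on the left, is negative with them on the right, as with Gabra5 at 0.07 and -0.81.

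Lists of marker genes moved with some members. Marker values are means of log2 signals, correlations are over arrays that share slides and groups, and they are given as a description. Gabra5 had r 0.85 with the hippocampal principal neuron list over 15 arrays and 0.58 without MS2 replicate 4. Within slides, without that array, Gabra5 had r 0.84 on slide 1 (8 arrays) and 0.21 on slide 2 (6 arrays). For Gabrb1 the values were 0.74 over 15 and 0.64 over 14, and 0.89 and 0.16 within slides. Gabrd had r 0.43 with that list over 15 arrays and -0.80 over 14, and -0.93 and -0.61 within slides.

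Gabrd also moved with the oligodendrocyte list of 6 myelin genes such as Mbp, with r 0.80 over the 14 arrays (0.39 over 15), and 0.86 and 0.80 within slides. With the list of 10 GABAergic interneuron genes r was 0.69 over the 14 arrays and 0.38 over 15. The list of 5 microglia genes gave r 0.82 over 15 arrays, the highest of any list there, and 0.75 over 14. Within slides, without MS2 replicate 4, the microglia list gave 0.68 and 0.91. For the hypothalamus list r was 0.65 over 14 arrays and -0.05 over 15, so several lists moved with Gabrd. Con replicate 19 and MS5 replicate 8, which had high Gabrd, had the highest oligodendrocyte level of their groups, 12.81 and 13.04, where the group medians were 10.91 and 12.05. MS2 replicate 5, also high in Gabrd, had 12.06, below the 12.70 of MS2 replicate 4, which had the lowest Gabrd. In Con that list ranged from 10.32 to 12.81, in MS2 from 10.87 to 12.70 and in MS5 from 10.48 to 13.04, and all 6 genes were well above background on every array. The part of tissue makeup in the Gabrd and Gabra5 values was not tested.

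**Figure D4:**
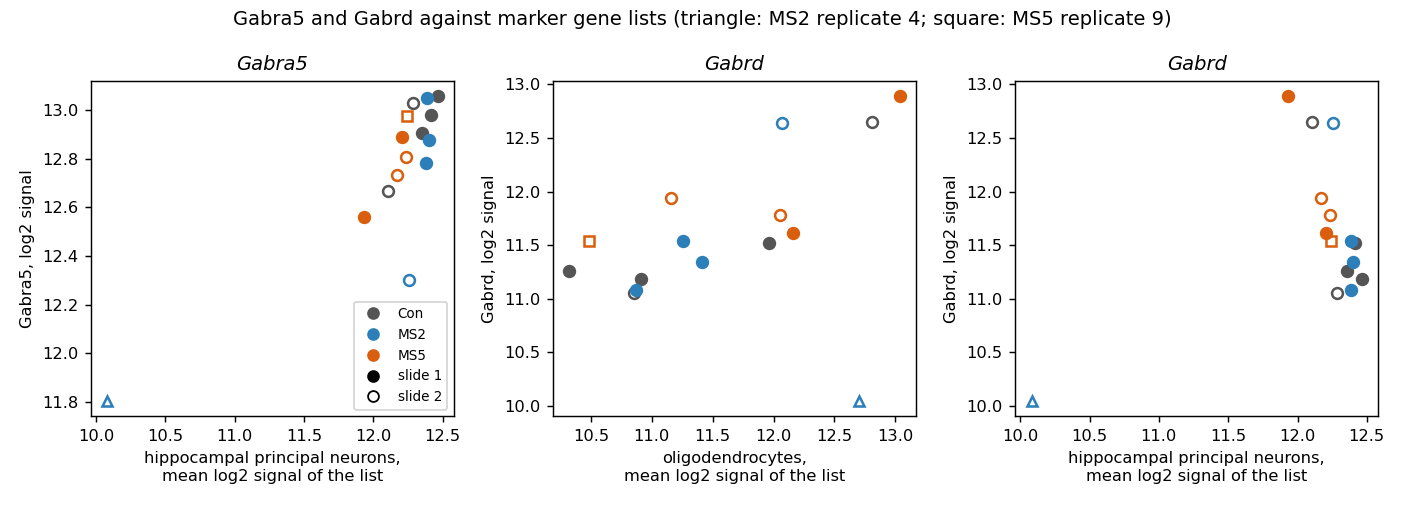
Log2 signal of Gabra5 and Gabrd (vertical axes) against the mean log2 signal of the hippocampal principal neuron and oligodendrocyte gene lists (horizontal axes) on 15 arrays; colours are groups, filled symbols slide 1 and open symbols slide 2. MS2 replicate 4 (triangle) lies apart in each panel, with a principal neuron level of 10.08.

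The genes most like each member were found by Pearson's r over the 15 arrays among 20213 candidate probes, and the 3 highest are named. For Gabra5 they were Cdh9, a cadherin of hippocampal synapses, Dbn1, the actin-binding protein of dendritic spines, and Dpyd, with r 0.98, 0.97 and 0.97. For Gabra2 they were Stk4, Snx10 and Ufm1 (r 0.94, 0.93 and 0.92), and for Gabrb1 Palm, Acot4 and Rnf165 (0.95, 0.95 and 0.93). Gabrd was most like Gng7, a G protein gamma subunit, Zfyve28 and Inpp4a (0.97, 0.95 and 0.95).

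The nearest to Gabra3 were Garnl3, Pla2g4e and Klf6 (r 0.96, 0.95 and 0.95), to Gabra4 Rpa2, Tsks and Golga4 (0.94, 0.90 and 0.89), and to Gabrb2 Slc35f1, Ttc9b and Panx2 (0.92, 0.91 and 0.90). None of the 21 was another GABA-A receptor subunit. Without MS2 replicates 4 and 5 the 21 values ran from 0.83 to 0.95.

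44 other genes of GABA signalling were read beside the members, all on the array and 39 of them well above background on every array. 1 passed an unadjusted limma p under 0.05 in each comparison, or 2.27% of 44, where 4.17%, 3.9% and 3.97% of all probes did, and none had an adjusted p under 0.970. Among 12 other receptor subunits 0 passed in any comparison, and the median difference was 0.02 in MS2 vs Con and 0.03 in MS5 vs Con. All 9 genes of GABA synthesis, transport and breakdown had a higher mean in MS2 than in Con, with a median difference of 0.12 and 0 past the threshold, and 8 of 9 had a higher mean in MS5, with a median of 0.20. With MS2 replicates 4 and 5 and MS5 replicate 9 left out, 5 of the 9 were higher in MS2 than in Con (median 0.00) and 7 of 9 were higher in MS5 (median 0.30). Of 16 scaffold and trafficking genes 0 passed.

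Gabbr2, a subunit of the G protein-coupled GABA-B receptor, was the gene that passed in MS2 vs Con. Its Con values were 11.06, 10.53, 10.44, 10.64 and 10.09. MS2 values were 11.00, 11.10, 11.17, 10.66 and 10.98, 3 of them between the lower 4 Con arrays and Con replicate 15. MS5 values were 10.76, 10.67, 10.87, 10.47 and 10.72. MS2 exceeded Con by 0.43 log2 units (unadjusted limma p 0.0099, adjusted p 0.970, exact permutation p 0.0476), by 0.31 on slide 1 and 0.60 on slide 2, and by 0.38 without MS2 replicate 4. The other 2 Gabbr2 probes gave 0.20 and 0.20, with unadjusted limma p of 0.133 and 0.00946.

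Slc12a2, the sodium, potassium and chloride carrier NKCC1 that loads immature neurons with chloride, passed in both comparisons of MS5. Con values were 12.02, 12.32, 12.36, 12.16 and 12.30. MS2 values were 12.12, 12.13, 12.12, 12.26 and 12.00. In MS5 they were 12.14, 11.69, 12.14, 11.89 and 11.65, with replicates 9 and 14 the lowest of all 15. The MS5 vs Con difference was -0.33 (unadjusted limma p 0.00422, adjusted p 1.00, exact permutation p 0.0317), -0.17 on slide 1 and -0.48 on slide 2, and -0.28 without MS5 replicate 9. MS5 vs MS2 was -0.22 (p 0.037) and -0.17 (p 0.103) without that replicate. The 2 arrays lowest in Slc12a2, a gene also expressed in choroid plexus, were the lowest in the list of 10 choroid plexus genes: 9.84 on MS5 replicate 9 and 8.68 on replicate 14, where the other 13 had 11.47 to 12.77. Over the 15 arrays Slc12a2 had r 0.90 and rho 0.84 with that list, and r 0.80 over the 13 without these 2. Of that list, Folr1, Kl, Aqp1, Calml4, Slc4a5 and Cldn2 were reported by the study as lower in MS5. Its low level in MS5 was thus known when the list was made. The part of choroid plexus in the Slc12a2 values was not tested.

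With MS2 replicates 4 and 5 and MS5 replicate 9 left out, a choice made after seeing the data, 3, 7 and 9 of the 44 genes passed in MS2 vs Con, MS5 vs Con and MS5 vs MS2 (6.82%, 15.9% and 20.5%), beside 6.17%, 6.69% and 7.19% of all probes, and no adjusted p was under 0.424. The 3 in MS2 vs Con were Gabrr1 (-0.24), Gabbr2 (0.47) and Ubqln1 (0.26). Higher in both comparisons of MS5 were Gad1 and Gad2, which make GABA, the GABA transporter Slc6a11, Abat, which breaks GABA down, Gabrg1 and Hap1. Gad2 was 0.64 above Con and 0.71 above MS2, where with all arrays it was 0.45 and 0.30 (unadjusted limma p 0.121 and 0.282). These names were chosen after their values were seen. The MS2 arrays kept all lay on slide 1, so the comparisons with MS2 are not balanced for slide. Beside them, over the arrays kept, the interneuron list ranged from 11.09 to 11.42 in MS5, from 10.98 to 11.08 in MS2 and from 10.88 to 11.35 in Con. The hypothalamus list ranged from 7.33 to 8.66 in MS5, from 6.88 to 7.08 in MS2 and from 6.67 to 7.45 in Con. Of the hypothalamus genes, Avp and Trh were reported by the study as higher in MS5. A higher level of that list in MS5 was thus in part known when the list was made. Otp of the same list was well above background on 0 arrays and Sim1 on 1. The part of the interneuron and hypothalamus lists in these differences was not tested.

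**Figure D5:**
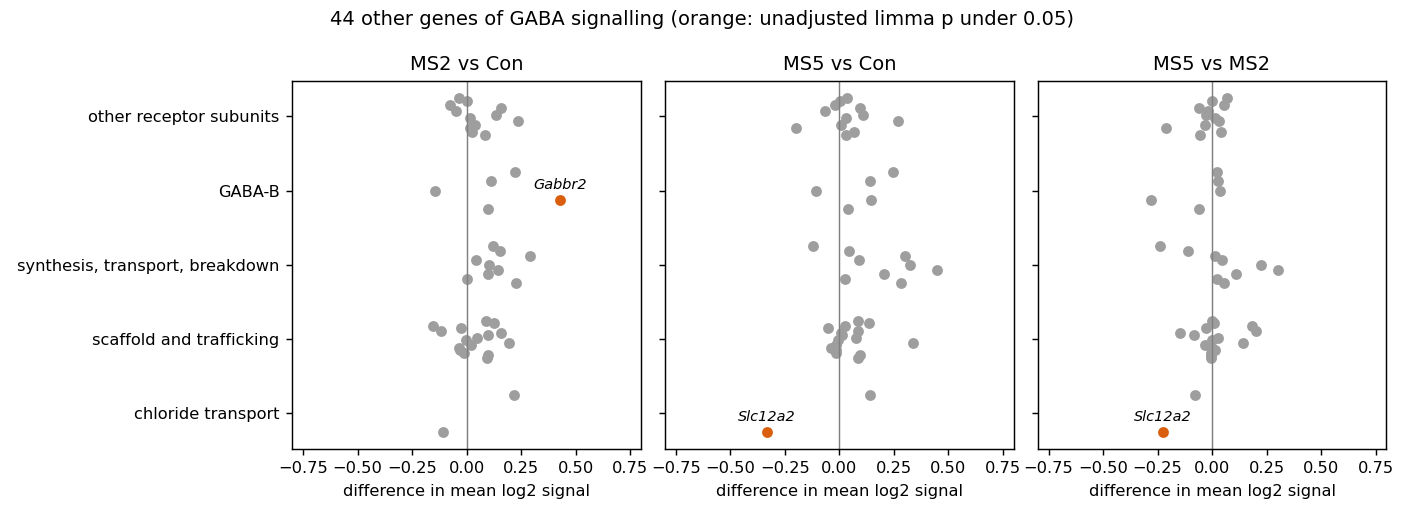
Difference in mean log2 signal (horizontal axes) of the leading probes of 44 other genes of GABA signalling, sorted by role, in the 3 comparisons; orange points have an unadjusted limma p under 0.05. Gabbr2 is the orange point in MS2 vs Con at 0.43, and Slc12a2 that in MS5 vs Con at -0.33 and in MS5 vs MS2 at -0.22.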

How the data were processed

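Hippocampal mRNA was measured on 15 Agilent 8x60k 1-colour arrays, 5 per group. The scanner files deposited by the authors hold fluorescence intensity per spot, from Feature Extraction 10.7.1.1, with probes placed on mm9. The series table deposited by the authors holds log2 values after normexp background adjustment and quantile normalization. These log2 values were used as given, without control rows. Mean signals minus local background, taken through normexp (offset 50), quantile normalization and log2, matched them within 5e-09, and probe names came from that match. The miR arrays were not used here.

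Groups were compared in R 4.3.3 with limma 3.58.1 (lmFit and eBayes, 1 fit of 3 groups), with Benjamini-Hochberg adjustment over 55681 probes. Exact permutation tests, two-sided, took every assignment of the 10 arrays to 2 groups of 5. MS2 and MS5 were compared with the same Con arrays. The fit was tested on simulated data. Named genes were the members, the listed GABA genes with an unadjusted p under 0.05 in a comparison, and the 3 genes most like each member. The members and all gene lists were chosen with earlier results of these data known. The alternatives were array weights, an offset of 0, the processed signal scaled to the 75th percentile, a filter that kept probes detected on all 5 arrays of some group, the slide as a block, the scanner files with spots averaged, a fit of just the 2 groups at hand, gene means over their probes, and each array left out in turn. Leaving out MS2 replicates 4 and 5 and MS5 replicate 9 was chosen after seeing the data, and it left MS2 with 3 arrays, all on slide 1. Promoters came from RefSeq (GRCm38.p6). The number of arrays limits the precision, and all 9 member probes were well above background on all 15 arrays.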

Additional observations from a re-analysis of the deposited data

Results flagged for a closer look

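The highest Con value of the second Gabra3 probe, 7.0 on Con replicate 15, lay apart from the other 4 Con arrays, the nearest of which was at 6.80: the gap took 0.81 of the range of the 5 arrays. It was the only one of 27 sets of 5 arrays (9 member probes in 3 groups) in which that share passed the cut of 0.71, and chance alone sets off about 1 in 20 such groups. Gabrd came just below the cut in Con (0.706) and MS5 (0.702), with wider gaps in log2 units. Its Con replicate 19 was at 12.65 with the nearest at 11.52, and its MS5 replicate 8 at 12.89 with the nearest at 11.94.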

How the results depend on the processing

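The 3 counts of member probes at an unadjusted limma p under 0.05, 0 of 9 each, were 0 with an offset of 0, the processed signal scaled to the 75th percentile, only probes well above background, and the scanner files with spots averaged. In MS2 vs Con the count was 1 with the slide as a block (Gabra5, beside 2860 of the 55681 probes) and 1 with the 3 arrays left out (Gabra2, beside 6.17% of all probes), and over the 15 fits without 1 array it ran from 0 to 2 (Gabra5, Gabrb2 or Gabra3), where 2.93% to 6.58% of all probes passed. In MS5 vs Con it was 1 with array weights (6.42% of all probes) and 1 with only the 2 groups compared (5.76%), the second Gabra3 probe both times. In MS5 vs MS2 it was 1 with the 3 arrays left out (Gabra2, 7.19%), and 0 to 1 without 1 array (Gabrd, without MS2 replicate 5, 4.64%). The smallest adjusted p of a member under any of these was 0.541. Of the 44 other GABA genes, where 1 passed per comparison, 4 (9.09%, beside 7.49% of all probes) passed in MS2 vs Con with array weights and 2 (4.55%, beside 3.74%) with only the 2 groups compared. In MS5 vs Con 2 (4.55%, beside 4.02%) passed with an offset of 0 and 5 (11.4%, beside 5.76%) with only the 2 groups compared. In MS5 vs MS2 4 (9.09%, beside 9.69%) passed with array weights, 0 (beside 4.06%) with an offset of 0 and 2 (4.55%, beside 3.05%) with the processed signal. With the 3 arrays left out these counts were 3, 7 and 9. Member differences kept their sign in 173 of 189 fits with another setting and in 184 of 210 without 1 array, and the values that turned had a size of at most 0.25 and 0.12. Some settings could not move a member's difference: the background filter, the fit of just the 2 groups, and spot averages, as each member probe had 1 spot. Gene means could not move it for genes with 1 probe. Such fits count among the 189 as signs kept, so that count overstates how steady the signs were. With limma's array weights the sign turned in MS2 vs Con Gabra2 (0.15), Gabra4 (-0.055), Gabrb1 (0.083) and in MS5 vs MS2 Gabra2 (-0.13), Gabra3 (0.070), Gabra5 (-0.020), Gabrb1 (-0.11). With MS2 replicates 4 and 5 and MS5 replicate 9 left out, chosen after seeing the data, the sign turned in MS2 vs Con Gabra2 (0.23), Gabra4 (-0.097), Gabrb1 (0.14) and in MS5 vs Con Gabra2 (-0.014), Gabra3 (-0.0072) and in MS5 vs MS2 Gabra2 (-0.25), Gabra5 (-0.16), Gabrb1 (-0.17). With the slide as a block the sign turned in MS5 vs Con Gabrb1 (0.031). Without 1 array, signs turned for these, with their ranges: in MS2 vs Con Gabra2 -0.14 to 0.079, Gabra4 -0.081 to 0.10, Gabrb1 -0.15 to 0.023, Gabrd -0.53 to 0.12, in MS5 vs Con Gabra2 -0.044 to 0.089, Gabra3 -0.0072 to 0.21, Gabra4 -0.026 to 0.12, Gabrb1 -0.078 to 0.022, in MS5 vs MS2 Gabra2 -0.053 to 0.16, Gabra3 -0.22 to 0.039, Gabra4 -0.063 to 0.14, Gabrb1 -0.040 to 0.13. The cause was not tested. No paired analysis was possible because the groups share no replicate number and the labels give no litter. By the study's account Con pups were littermates of treated pups, so groups shared litters. All pups were nonetheless treated as independent. The number of arrays limits the precision: 5 per group left intervals of over 1.5-fold for Gabrd.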
